A study of Mus musculus with 8 samples.

Results

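Genes that license replication origins, build and drive the replication fork, and supply deoxynucleotides were examined in cancers of the mouse gastric squamous-columnar junction (SCJ), the border between the squamous forestomach and the glandular stomach. The 52 members were chosen by gene symbol, and all 52 were found among the 23361 genes listed. RNA of 5 SCJ cancers was compared with RNA of the SCJ from 3 control stomachs by sequencing of bulk tissue. The cancers, labelled Trp53-/-Rb1-/-, came from Lgr5eGFP-Ires-CreERT2 Trp53loxP/loxP Rb1loxP/loxP Ai9 mice given tamoxifen, and the controls were SCJ tissue of age-paired mice labelled wild type. The sources used here do not state whether the mice of the sequenced controls were also given tamoxifen. Tamoxifen activates Cre in cells that express Lgr5, so deletion starts in these cells and their progeny, which the Ai9 reporter marks with tdTomato. Tumors were dissected months after induction along the border of tdTomato fluorescence, and such pieces can also hold cells without Cre. Ages, strain and sex of the individual mice, and whether each tumor came from a separate mouse, are not given in the sources used here, so p-values measure the spread between these samples.

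Before S phase the origin recognition complex marks origins, and Cdc6 and Cdt1 load the ring of Mcm2, Mcm3, Mcm4, Mcm5, Mcm6 and Mcm7 on DNA in an inactive form, a step that geminin (Gmnn) blocks by binding Cdt1. The kinase Cdc7 with Dbf4 and cyclin-dependent kinases then turn the ring into a helicase with Cdc45 and the GINS complex, and primase, the DNA polymerases, the PCNA clamp, its loader RFC and the single-strand binding protein RPA complete the fork. Ribonucleotide reductase, thymidylate synthase, thymidine kinase and dUTPase shape the nucleotide pools that the fork uses. Many of these genes are known targets of E2F transcription factors, which the product of Rb1 binds and restrains. In a healthy stomach their RNA is found mostly in the dividing cells of the glands and of the squamous basal layer.

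Promoters were read because the members share this textbook regulator, and 4 of them are shown for the contrast they make with expression. The sequences are from RefSeq on GRCm38.p6, each 300 bases long (250 before to 50 after the start) and on the strand of the gene. Capitals mark the letters TTTCCCGC, TTTGGCGC, TTTCGCGC or TTTGCCGC or their reverse complements, taken here as E2F letters, and matches may overlap. The Mcm6 promoter (chr1:128359656-128359955, minus strand) held 3 matches, at -110, -106 and -47 from the start, and that of Rfc3 (chr5:151651159-151651458, minus strand) held 2. Both genes were higher in the cancers. The Orc1 promoter (chr4:108579204-108579503, plus strand) held 1 match, at -27. Orc1 was listed at 1 in every sample, a level at which rounding to whole numbers hides small differences. The Prim1 promoter (chr10:128014965-128015264, plus strand) held 0 exact matches, and Prim1 was among the members with the largest rise. It did hold the letters gttcccgc, 1 base from TTTCCCGC, and such near matches were not counted in any promoter.
Mcm6: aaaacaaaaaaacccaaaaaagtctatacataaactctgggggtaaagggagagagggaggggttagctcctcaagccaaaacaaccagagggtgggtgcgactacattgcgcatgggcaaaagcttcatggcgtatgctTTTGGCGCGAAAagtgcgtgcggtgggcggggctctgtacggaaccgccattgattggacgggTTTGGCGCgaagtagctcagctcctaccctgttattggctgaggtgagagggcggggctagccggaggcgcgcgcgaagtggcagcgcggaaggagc
Rfc3: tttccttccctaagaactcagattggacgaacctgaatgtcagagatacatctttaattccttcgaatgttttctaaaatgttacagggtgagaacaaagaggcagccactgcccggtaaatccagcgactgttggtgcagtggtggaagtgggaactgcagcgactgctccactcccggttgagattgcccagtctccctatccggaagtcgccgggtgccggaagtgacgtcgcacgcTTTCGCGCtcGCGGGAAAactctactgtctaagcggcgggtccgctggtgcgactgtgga
Orc1: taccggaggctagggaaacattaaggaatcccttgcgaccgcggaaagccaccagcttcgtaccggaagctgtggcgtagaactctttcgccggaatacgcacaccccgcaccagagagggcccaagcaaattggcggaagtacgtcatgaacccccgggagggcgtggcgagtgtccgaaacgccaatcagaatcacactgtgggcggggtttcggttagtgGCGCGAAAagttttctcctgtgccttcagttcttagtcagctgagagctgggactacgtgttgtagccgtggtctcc
Prim1: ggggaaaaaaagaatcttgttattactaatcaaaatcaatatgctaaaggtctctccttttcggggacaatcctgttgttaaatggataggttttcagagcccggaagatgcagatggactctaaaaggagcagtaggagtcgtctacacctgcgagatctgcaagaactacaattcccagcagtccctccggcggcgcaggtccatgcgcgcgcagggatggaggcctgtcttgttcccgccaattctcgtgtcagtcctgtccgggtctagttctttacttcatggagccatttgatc

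E2F letters were present in about the same share of promoters of members that rose and of members that did not pass the test. RefSeq promoters were matched for 43 members (52 promoters), leaving Gmnn, Mcm4, Gins1, Gins2, Gins4, Prim2, Pole, Rfc2 and Tipin without one. At least 1 match was present in 30.8% of these promoters, against 2.26% of all 32851 promoters of this length and 3.63% of the 13453 promoters of genes tested. The share was 29.0% for members higher in the cancers (9 of 31 promoters) and 33.3% for the rest (7 of 21). On the log2 scale the median fold change was 0.99 for the 16 members with a match and 0.86 for the 27 without. The CCAAT letters, read on both strands, were in 50.0% of member promoters and 37.1% of those of genes tested, with 51.6% for members higher in the cancers and 47.6% for the rest. The letters TTTGAA or TTCGAA, read in the same way and known from cell cycle promoters, were in 19.2% of member promoters. They were also in 19.2% of all promoters and in 13.7% of those of genes tested. The share was 25.8% for members higher in the cancers (8 of 31 promoters) and 9.52% for the rest (2 of 21). Among the 8, the 2 overlapping Cdc7 promoters hold the same 1 site. By gene, 7 of 25 members higher in the cancers and 2 of 18 of the rest held a match. Matches are a description of letters, and the median G and C content of the windows was 61.3% for members and 60.3% for genes tested.

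For 14 of the 43 members (32.6%) another gene started on the opposite strand within 1000 bases, against 18.4% of the 10556 genes tested that had a promoter entry. The start of Rpa1 was 50 bases from that of Smyd4, a lysine methyltransferase family gene, and both were higher in the cancers. The log2 fold change of Smyd4 was 1.29 (adjusted p = 0.010, limma). The 3 other tested neighbours of members that rose did not pass the test, namely Ap4m1 beside Mcm7 (log2 fold change -0.03, adjusted p = 0.87), Socs4 beside Wdhd1 (-0.81, adjusted p = 0.14) and Tmem258 beside Fen1 (0.01, adjusted p = 0.98). Neighbours of Rfc5, Lig1 and Cdc45, namely Gm15728, Zswim9 and Ufd1, were not found under these symbols among the genes tested, and older symbols were not searched for them.

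The deposited values are described as FPKM, a measure of sequenced fragments per transcript length and per library, and the authors rounded them to whole numbers, so that low genes move in coarse steps. Sequencing depth is unknown. The FPKM of a library summed to 403569 to 573858 in the cancers and to 887141 to 992550 in the controls, and the 10 most abundant genes took 11.1% to 19.6% of that sum in the cancers and 39.3% to 44.3% in the controls. Pearson correlations of log2(FPKM + 1) were 0.961 to 0.976 between controls and 0.780 to 0.925 between cancers. Rb1, deleted in the cancers, had FPKM of 4, 4, 5, 6 and 4 in cancers 1 to 5 and 9, 9 and 10 in controls 1 to 3 (log2 fold change -0.90, SE 0.16, adjusted p = 0.0059, limma), whereas Trp53 had 12, 22, 12, 30 and 12 against 16, 17 and 19 (log2 fold change -0.08, adjusted p = 0.87, limma). After scaling to equal totals (TPM) these values became -0.05 for Rb1 (adjusted p = 0.84, limma) and 0.86 for Trp53 (adjusted p = 0.020, limma), beside a median of 0.81 over all genes. A value per gene does not show which exons were deleted. FPKM are listed for cancers 1 to 5 and then for controls 1 to 3, fold changes are log2 of FPKM + 1 in cancer minus control, and adjusted p-values are from limma with Benjamini-Hochberg adjustment over the 14357 genes tested.

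Most of the members chosen here were higher in the cancers with FPKM as deposited. Of the 52 members, all tested, 30 (57.7%) passed the threshold of 0.05 as higher, where 16.2% of all genes tested did, and 0 passed as lower, where 18.3% did. The other 22 did not pass. Those that rose included all 6 subunits of the helicase ring, the clamp and 4 of 5 subunits of its loader, Rpa1 and Rpa2 of replication protein A, 3 of 4 fork protection genes and dUTPase, and 24 of the 30 rose by more than 1 on the log2 scale. The median log2 fold change was 0.87 over the members and -0.04 over all genes tested. The 30 members that rose were also those in which every cancer lay above every control, which was so for 14.4% of all genes tested. In 0 members did every cancer lie below every control, against 19.8% of all genes. The members lie on 16 chromosomes.

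In bulk tissue a higher share of dividing cells and more RNA per cell cannot be told apart. The sum of 8 markers of proliferating cells (Mki67, Top2a, Ccna2, Ccnb1, Cdk1, Plk1, Aurkb and Bub1) was 81 to 190 FPKM in the cancers and 52 to 90 in the controls. Of these, Ccnb1, Cdk1 and Aurkb passed as higher (3 of 8). The part of this difference in the members' rise was not tested. The calls also moved with the scaling of the libraries. Giving every library an equal total (TPM) moved the median of all genes from -0.04 to 0.81 and the calls over all genes from 2326 higher and 2622 lower to 7176 higher and 528 lower. With TPM 46 members (88.5%) were higher, against 50.0% of all genes, and 0 lower, against 3.68%. Every cancer then lay above every control in 46 members and in 49.6% of all genes, and 46 members lay above the shifted median of all genes. The median of the members less that of all genes was 0.90 with FPKM, 1.02 with TPM and 1.02 with quantile normalization, in which 29 members were higher (13.2% of all genes) and 0 lower (13.2%). With quantile normalization every cancer lay below every control in 1 member, Orc1, and in 18.1% of all genes. Of the 40 members with a mean of at least 5 FPKM, 26 were higher and 0 lower in a fit of such genes alone, where 13.6% and 24.9% of all genes were.

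**Figure D1:**
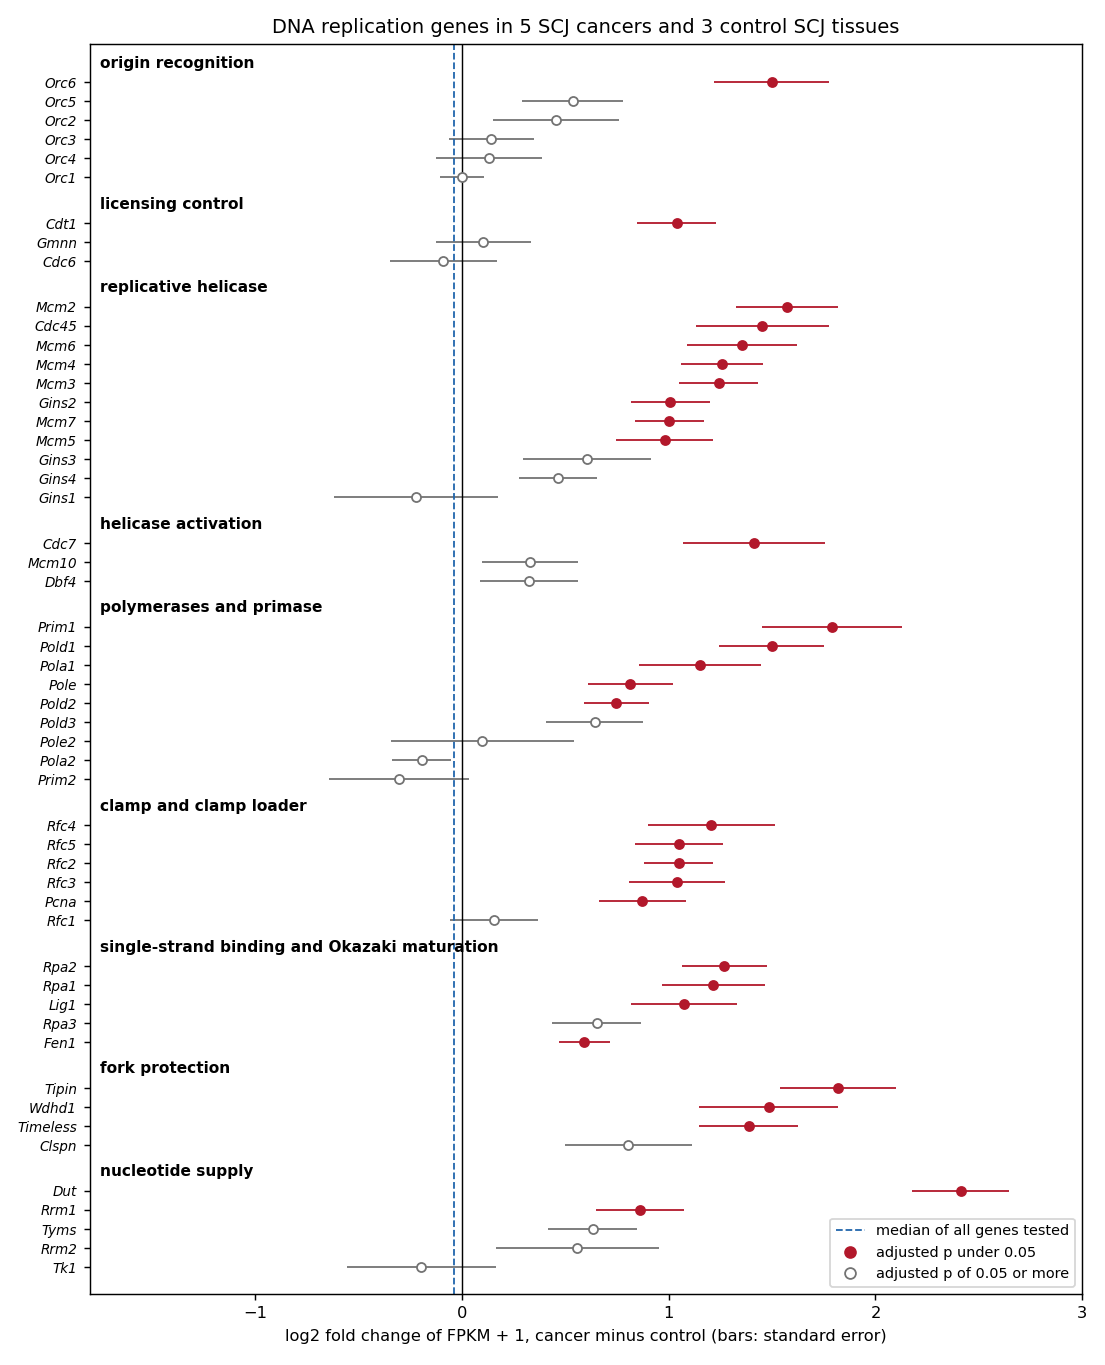
Log2 fold change of FPKM + 1 (cancer minus control, x axis) with its standard error for each of the 52 members, grouped by role on the y axis, with members that passed the limma threshold marked apart from the others. The 30 members that passed all lie to the right of 0, with Dut farthest at 2.41, and the members nearest to or left of 0 include Orc1, Cdc6, Gins1, Prim2, Pola2 and Tk1.

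In the origin recognition complex 1 of 6 subunits passed the test. Orc6, the small subunit that helps to bring in Cdt1 and the helicase ring (chromosome 8, 85299632 to 85308279, mm10), was that subunit. Its FPKM was 19, 16, 20, 13 and 13 in cancers against 8, 5 and 3 in controls. Every cancer exceeded every control, and Orc6 rose by 1.50 (SE 0.28, adjusted p = 0.0072, limma). Orc1, an ATPase subunit, was listed at 1 in all 8 samples (fold change 0.00, SE 0.11), a level at which rounding hides small differences. Orc2 had 11, 5, 9, 6 and 7 against 7, 6 and 3, and the groups overlapped (0.46, SE 0.30, adjusted p = 0.26, limma). Orc5 had 16, 10, 16, 12 and 9 against 10, 9 and 6, with cancers 2 and 5 within or at the range of the controls (0.54, SE 0.24, adjusted p = 0.12, limma). Orc3 and Orc4, with FPKM of 4 to 11 in all samples, had log2 fold changes of 0.14 and 0.13.

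Of the 3 licensing factors, 1 passed the test. Cdt1, which brings the helicase ring to the origin (chromosome 8, 122568015 to 122573130), had FPKM of 16, 14, 11, 9 and 11 in cancers against 6, 5 and 5 in controls. All cancers exceeded all controls, and Cdt1 rose by 1.04 on the log2 scale (SE 0.19, adjusted p = 0.0071, limma). Geminin, the inhibitor of Cdt1, had 22, 28, 28, 35 and 18 against 26, 27 and 19, with overlapping groups (0.10, SE 0.23, adjusted p = 0.74, limma). The ATPase Cdc6 had 3, 3, 2, 2 and 1 against 3, 2 and 2 (-0.09, SE 0.26, adjusted p = 0.81, limma). The log2 ratio of Cdt1 to Gmnn, each as FPKM + 1, was -1.03 ± 0.55 (SD, n = 5) in the cancers and -1.97 ± 0.24 (SD, n = 3) in the controls. The groups overlapped, since cancer 4 at -1.85 lay between control 3 at -1.74 and control 1 at -1.95. The difference of 0.93 did not pass (two-sided exact permutation test, p = 0.0714, adjusted over 5 ratios p = 0.179), and with 5 against 3 samples the smallest p is 0.0179.

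All 6 subunits of the helicase ring rose. Mcm2 (chromosome 6, 88883474 to 88898780), a target of Cdc7 in the ring, had FPKM of 40, 23, 29, 18 and 23 in cancers against 7, 9 and 8 in controls, a mean of 26.6 ± 8.44 (SD, n = 5) against 8.0 ± 1.0 (SD, n = 3). It rose by 1.57 (SE 0.25, adjusted p = 0.0040, limma). Mcm6 reached 46, 36, 42, 24 and 33 in the cancers against 17, 15 and 9 in the controls (1.35, SE 0.26, adjusted p = 0.0086, limma). Mcm7, whose intron holds the microRNAs Mir106b, Mir25 and Mir93 listed at the same locus, had 35, 32, 34, 25 and 24 against 13, 16 and 14 (1.0, SE 0.17, adjusted p = 0.0049, limma). Mcm3, Mcm4 and Mcm5 rose by 1.24, 1.26 and 0.98 (adjusted p = 0.0038, 0.0041 and 0.017, limma), with 11 to 32 FPKM in the cancers and 6 to 11 in the controls. Mcm5 lost its call without any 1 of the controls (adjusted p = 0.055, 0.054 and 0.063 without control 1, 2 and 3, limma). Within a sample the highest of the 6 ring subunits was 1.92 to 3.0 times the lowest, in controls as in cancers, and the highest was Mcm6 or Mcm7 in every sample. These are RNA levels per kilobase of transcript, and the ring itself holds 1 copy of each protein.

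Of the 5 partners that complete the helicase, Cdc45 and Gins2 passed. Cdc45, which ties the ring to GINS (chromosome 16, 18780447 to 18811972), had FPKM of 14, 7, 11, 5 and 6 in cancers against 2, 3 and 2 in controls. The groups did not overlap, and it rose by 1.45 (SE 0.32, adjusted p = 0.013, limma), with adjusted p = 0.055 without control 1 and 0.052 without control 3. Of the 4 GINS subunits only Gins2 passed, at 9 to 16 FPKM against 5 to 6 (1.01, SE 0.19, adjusted p = 0.0075, limma), and its row shares a locus with Gse1. Gins1 had 7, 10, 9, 9 and 6 in cancers against 21, 8 and 5 in controls (-0.22, SE 0.39, adjusted p = 0.68, limma). Control 1 was the highest of the 8 samples for Gins1, and without it the value was 0.30. Gins3 and Gins4 had fold changes of 0.61 and 0.47 (adjusted p = 0.16 and 0.088, limma), and Gins4 passed with quantile normalization (adjusted p = 0.048, limma). Over the 11 helicase genes, 8 rose, with a median of 1.01.

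Cdc7, the kinase that starts the helicase (chromosome 5, 106964322 to 106984439), was low in all samples and higher in the cancers. Its FPKM was 5, 2, 4, 4 and 2 against 1, 1 and 0, without overlap (1.41, SE 0.34, adjusted p = 0.018, limma). The call ended without control 3 (1.08, adjusted p = 0.062, limma) and with quantile normalization (adjusted p = 0.052, limma). Dbf4, the subunit that activates Cdc7, had 10, 7, 10, 6 and 6 against 8, 5 and 5 (0.33, SE 0.24, adjusted p = 0.30, limma), and Mcm10, a helicase activator, had 5, 5, 4, 3 and 3 against 4, 3 and 2 (0.33, SE 0.23, adjusted p = 0.29, limma). Both overlapped between groups. The log2 ratio of Dbf4 to Cdc7 was 1.03 ± 0.36 (SD, n = 5) in the cancers and 2.11 ± 0.50 (SD, n = 3) in the controls, and every cancer lay below every control. Its difference of -1.09 reached the smallest p of the exact permutation test (two-sided p = 0.0179) but not after adjustment over the 5 ratios (adjusted p = 0.0893), and the ratio rests on Cdc7 values of 0 to 5.

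**Figure D2:**
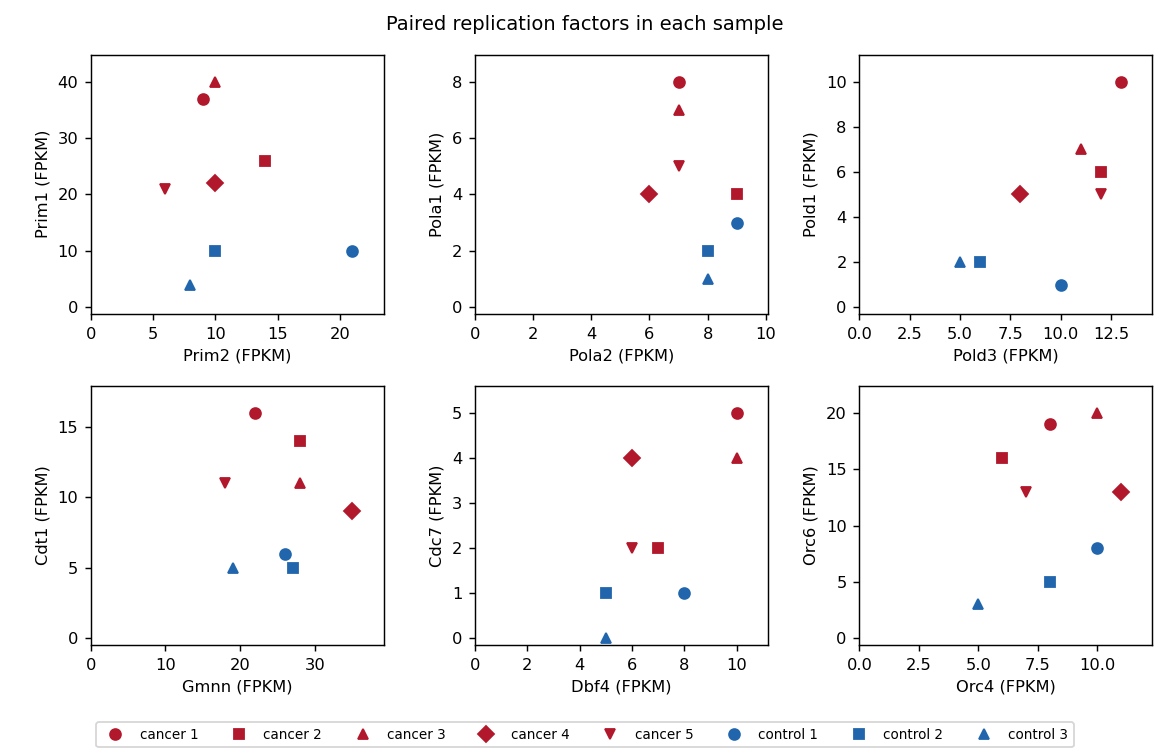
FPKM of a gene (y axis) against that of its partner (x axis) in each of the 8 samples, for Prim1 and Prim2, Pola1 and Pola2, Pold1 and Pold3, Cdt1 and Gmnn, Cdc7 and Dbf4, and Orc6 and Orc4. Each pair shown sets a member that passed against one that did not. For the first gene of each pair every cancer lies above every control, and for the second the groups overlap. Partners that passed together, such as Pold1 and Pold2 or Rpa1 and Rpa2, are not shown as pairs.

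Of 9 primase and polymerase subunits 5 rose, and the difference between partner subunits was tested only for Pole2 and Pole. Prim1, the catalytic primase subunit (chromosome 10, 128015215 to 128030030), had FPKM of 37, 26, 40, 22 and 21 in cancers against 10, 10 and 4 in controls. With no overlap it rose by 1.79 (SE 0.34, adjusted p = 0.0077, limma), and the mean was 29.2 ± 8.76 (SD, n = 5) against 8.0 ± 3.46 (SD, n = 3). Its partner Prim2, the large subunit, had 9, 14, 10, 10 and 6 against 21, 10 and 8 (-0.31, SE 0.34, adjusted p = 0.50, limma), and without control 1, its highest sample, the value was 0.08. Pola1, the catalytic subunit of polymerase alpha, rose by 1.15 (SE 0.30, adjusted p = 0.022, limma), whereas its partner Pola2 had 6 to 9 FPKM in all samples (-0.19, adjusted p = 0.31, limma) and turned to 0.70 with TPM (adjusted p = 0.023, limma), under the 0.81 of all genes. Pola1 lost its call without cancer 3 (adjusted p = 0.052, limma), without control 2 (0.067), without control 3 (0.079) and with quantile normalization (0.051).

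Of polymerase delta, which copies the lagging strand, Pold1 and Pold2 rose. Pold1, the catalytic subunit (chromosome 7, 44532744 to 44548815), had FPKM of 10, 6, 7, 5 and 5 against 1, 2 and 2, without overlap (1.50, SE 0.25, adjusted p = 0.0052, limma). Pold2 had 17 to 24 against 10 to 14 (0.75, SE 0.16, adjusted p = 0.012, limma), at a locus shared with Aebp1, and Pold3 had 8 to 13 against 5 to 10 (0.64, adjusted p = 0.066, limma). Of polymerase epsilon, which copies the leading strand, the catalytic subunit Pole had 4, 2, 3, 2 and 2 against 1 in each control (0.82, SE 0.21, adjusted p = 0.021, limma). That call ended without any 1 of the controls (adjusted p = 0.068, 0.067 and 0.063, limma) and with quantile normalization (0.44, adjusted p = 0.19, limma). Pole2 had 6, 6, 6, 5 and 1 against 5, 4 and 3 (0.10, SE 0.44, adjusted p = 0.88, limma), with cancer 5 below all other samples. The log2 ratio of Pole2 to Pole was 0.59 ± 0.71 (SD, n = 5) in the cancers and 1.30 ± 0.29 (SD, n = 3) in the controls, with overlap and p = 0.125 by the two-sided exact permutation test (adjusted p = 0.208).

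The clamp and 4 of the 5 clamp loader subunits rose. Pcna, the sliding clamp, was the most abundant member, with FPKM of 199, 194, 223, 157 and 123 in cancers against 107, 92 and 88 in controls, so that the mean was 179 ± 39.3 (SD, n = 5) against 95.7 ± 10.02 (SD, n = 3). All cancers exceeded all controls (0.87, SE 0.21, adjusted p = 0.018, limma), and the call ended without control 2 (adjusted p = 0.066, limma) or control 3 (adjusted p = 0.067, limma). The small loader subunit Rfc5 had 20, 18, 19, 12 and 13 against 9, 7 and 6 (1.05, SE 0.21, adjusted p = 0.010, limma). Rfc4 had 16, 15, 19, 14 and 11 against 9, 7 and 3 (1.21, SE 0.31, adjusted p = 0.021, limma), from a row that shares a locus with Eif4a2, and it had adjusted p = 0.052 without cancer 3 and also without control 2. Rfc2 and Rfc3 rose by 1.05 and 1.04 (adjusted p = 0.0043 and 0.014, limma), Rfc3 with adjusted p = 0.055 without control 3. Rfc1, the large subunit that makes the loader specific for replication, had 12, 8, 10, 8 and 10 against 9, 11 and 6, with overlapping groups (0.15, SE 0.21, adjusted p = 0.59, limma).

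Single-strand binding and Okazaki fragment maturation genes also rose, 4 of 5. Rpa2 (chromosome 4, 132768360 to 132778746), the middle subunit of replication protein A, had FPKM of 21, 14, 18, 12 and 12 in cancers against 6, 6 and 5 in controls (1.27, SE 0.21, adjusted p = 0.0046, limma). Rpa1, its large DNA-binding subunit, had 55, 29, 43, 26 and 42 against 14, 17 and 16 (1.22, SE 0.25, adjusted p = 0.010, limma). For both genes every cancer exceeded every control. The small subunit Rpa3 missed the threshold with 28 to 51 against 21 to 30 (0.65, SE 0.22, adjusted p = 0.051, limma), and passed with quantile normalization (adjusted p = 0.018, limma). Fen1, the flap nuclease that trims Okazaki fragments, had 13, 15, 12, 13 and 15 against 9, 8 and 9, a small and even rise (0.59, SE 0.12, adjusted p = 0.011, limma). Lig1, the ligase that seals them, had 13 to 28 against 8 to 10 (1.08, SE 0.26, adjusted p = 0.017, limma), with adjusted p = 0.060 without control 1 and 0.065 without control 3.

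The fork protection genes had the highest median of the roles, 1.44. Tipin (chromosome 9, 64281607 to 64304792), the partner of Timeless at the fork, had FPKM of 48, 25, 52, 30 and 32 in cancers against 11, 11 and 7 in controls, without overlap (1.82, SE 0.28, adjusted p = 0.0038, limma). Timeless was low, at 3 to 6 against 1 in each control (1.39, SE 0.24, adjusted p = 0.0056, limma). Wdhd1, which couples polymerase alpha to the helicase (chromosome 14, 47240944 to 47276857), had 9, 3, 8, 4 and 5 against 2, 1 and 1 (1.48, SE 0.34, adjusted p = 0.015, limma), and adjusted p = 0.059 without control 2 and 0.058 without control 3. Clspn, the adaptor claspin that carries the checkpoint signal to Chk1, had 6, 3, 5, 2 and 3 against 2, 2 and 1 (0.81, SE 0.31, adjusted p = 0.074, limma), and it passed without cancer 4, its lowest cancer (0.96, adjusted p = 0.038, limma).

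In nucleotide supply Dut stood apart from the others. Dut, the dUTPase that keeps uracil out of DNA and yields the precursor of thymidylate (chromosome 2, 125247248 to 125259049), had FPKM of 57, 40, 47, 27 and 34 in cancers against 7, 6 and 7 in controls. Its mean was 41.0 ± 11.6 (SD, n = 5) against 6.67 ± 0.58 (SD, n = 3), a ratio of 6.15 and the largest log2 fold change of the 52 (2.41, SE 0.23, adjusted p = 0.0011, limma). Rrm1, the large subunit of ribonucleotide reductase, had 27, 18, 22, 18 and 18 against 14, 11 and 8 (0.86, SE 0.21, adjusted p = 0.019, limma), and its call ended without control 2 (adjusted p = 0.060, limma) or control 3 (adjusted p = 0.064, limma). Rrm2, the small subunit that sets the activity of the enzyme in S phase, had 21, 16, 16, 14 and 5 against 10, 8 and 8. Its value in cancer 5 lay below every control and the other cancers above them, and the fold change of 0.56 (SE 0.40, adjusted p = 0.29, limma) became 0.87 without cancer 5 (adjusted p = 0.013, limma). The log2 ratio of Rrm2 to Rrm1 was -0.59 ± 0.61 (SD, n = 5) in the cancers and -0.29 ± 0.25 (SD, n = 3) in the controls, with a p of 0.625 by the two-sided exact permutation test. Tk1, the thymidine salvage kinase, had 15, 33, 15, 18 and 9 against 24, 17 and 17 (-0.20, SE 0.36, adjusted p = 0.69, limma), from a row at the same locus as Afmid. Tyms, which makes thymidylate, had 7 to 13 against 5 to 8 (0.63, SE 0.22, adjusted p = 0.054, limma).

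**Figure D3:**
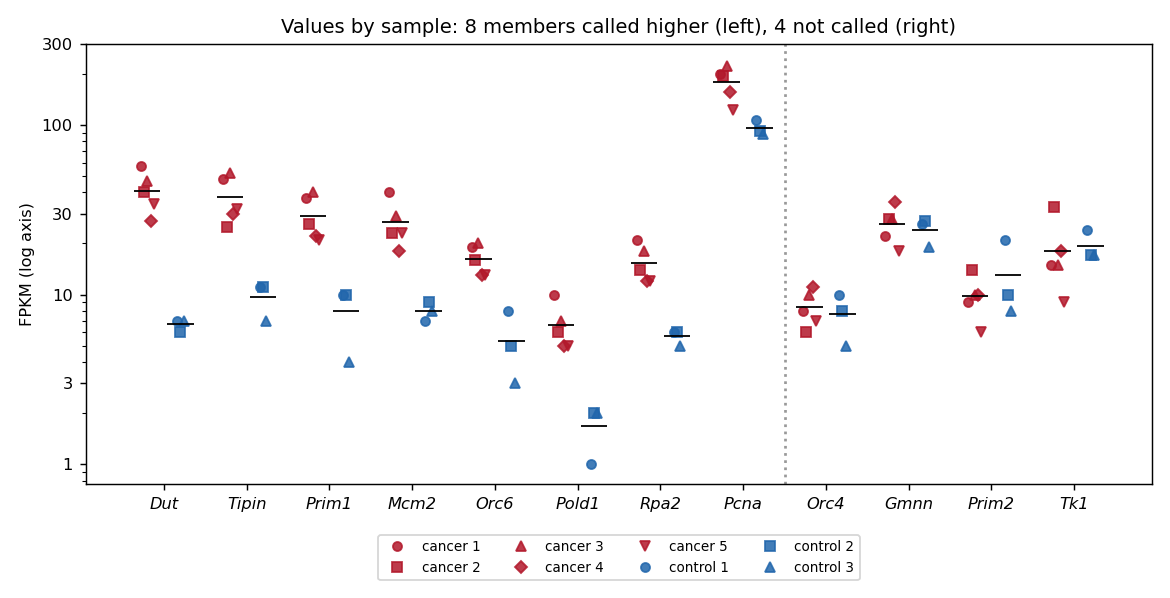
FPKM (log axis) in each of the 8 samples for 8 members that passed as higher and 4 that did not, with 1 point per sample and a line at each group mean. For the 8 members on the left all cancers lie above all controls, and for the 4 on the right the groups overlap.

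The rise was largest in cancers 1 and 3 for most members. Relative to the mean of the controls on the log2 scale, the median of the 52 members was 1.28, 0.84, 1.03, 0.66 and 0.66 in cancers 1 to 5 and 0.19, 0.03 and -0.19 in controls 1 to 3. The median of all genes tested lay between -0.05 and 0 in each sample on this scale. Among the cancers, 36 members were highest in cancer 1 and 43 in cancer 1 or 3, ties included, and 46 were lowest in cancer 4 or 5. Among the controls 41 were highest in control 1 and 43 lowest in control 3. Cancer 1 was also the cancer with the highest sum of proliferation markers (190 FPKM), and cancer 4 had the lowest (81 FPKM). Without cancer 1 the same 30 members passed.

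**Figure D4:**
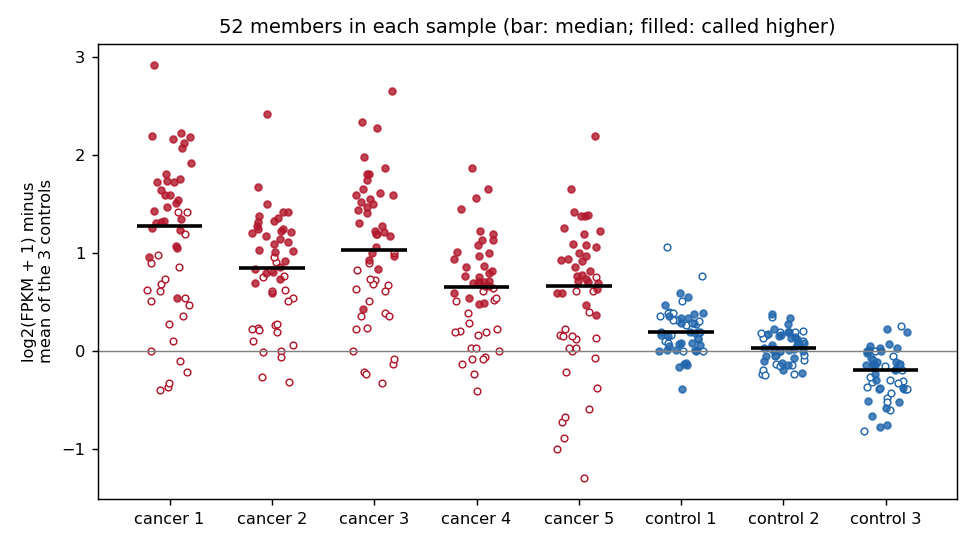
Log2(FPKM + 1) of each of the 52 members less the mean of the 3 controls (y axis) in each sample (x axis), with a bar at the median and filled points for members that passed. The medians of the 5 cancers lie between 0.66 and 1.28, and those of the controls between -0.19 and 0.19.

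Cell types other than dividing cells also differed between the samples, and their part in the members' values was not tested. The defining markers of neuroendocrine cells (Chga, Chgb, Syp and Insm1) summed to 7568 to 16697 FPKM in the cancers and 120 to 181 in the controls, and 4 of 4 passed as higher. Parietal markers (Atp4a, Atp4b and Gif) summed to 0 to 2580 and 6552 to 12325 (0 of 3 passed), with all 3 at 0 in cancer 1, and pit markers (Muc5ac, Tff1 and Gkn1) to 517 to 46826 and 94213 to 136503 (Gkn1 lower). Squamous markers (Krt5, Krt14, Krt4 and Krt13) summed to 0 to 1567 and 1526 to 2561 (Krt4 lower), and chief cell markers (Pgc, Pga5 and Bhlha15) to 12 to 6875 and 64 to 28903 (Bhlha15 lower). Pgc was listed at 28832 in control 1 and at 0 in controls 2 and 3. Smooth muscle markers summed to 21 to 851 and 192 to 265 (0 of 4 passed), fibroblast markers to 48 to 218 and 53 to 98 (0 of 4), endothelial markers to 12 to 38 and 6 to 9 (2 of 4 higher) and macrophage markers to 33 to 63 and 13 to 14 (1 of 4 higher). Of the T and B lymphocyte markers, Cd79a was at 68 FPKM in cancer 1, at 0 to 2 in cancers 2 to 5 and at 0 in each control, Ms4a1 and Cd8a were listed at 0 outside cancer 1, and 0 of the 3 that could be tested (Cd3e, Cd3g and Cd79a) passed. Hepatocyte markers summed to 445 in cancer 5 and 1 to 58 in the other cancers, against 1 in each control, with Fga, Fgg and Apoh at 0 outside cancer 5.

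**Figure D5:**
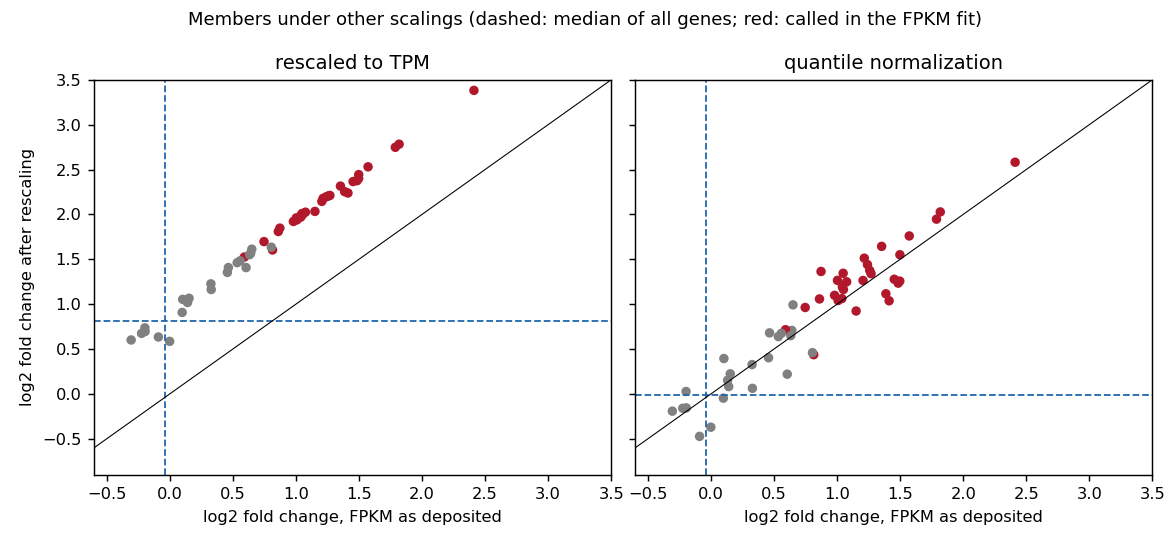
Log2 fold change of each member after rescaling to TPM or after quantile normalization (y axis, 1 panel each) against that from FPKM as deposited (x axis), with members that passed in the FPKM fit in red and the median of all genes dashed. With TPM the median of all genes moves to 0.81 and 46 of 52 members lie above it.

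Another 48 genes of replication and nucleotide metabolism, which are not members, were counted in the same fit. Of these 48, 11 passed as higher, where 16.2% of all genes tested did, and 2 as lower, where 18.3% did. With TPM 38 were higher, against 50.0% of all genes, and 0 lower. With FPKM 35 did not pass, and the median log2 fold change was 0.29. Donson, a factor of helicase assembly, had FPKM of 18, 6, 17, 8 and 10 against 3, 2 and 2 (1.85, SE 0.36, adjusted p = 0.0081, limma), the largest of the 48. Chaf1b, of the histone chaperone that follows the fork, had 11, 11, 12, 7 and 10 against 3, 4 and 3 (1.36, SE 0.19, adjusted p = 0.0028, limma). Dscc1 of an alternative clamp loader, the nuclease Dna2 and the guanine nucleotide enzyme Impdh1 rose by 1.10, 1.07 and 1.04 (adjusted p = 0.010, 0.025 and 0.015, limma). Dscc1 and Dna2 were at 1 in each control, and without 1 of the controls the adjusted p of Dna2 was 0.075 to 0.079 (limma). With quantile normalization it was 0.11 for Dna2 and 0.060 for Dscc1. That of Impdh1 was 0.063 without control 1 and 0.051 without control 2. Mcmbp, which binds the helicase ring, had 14, 19, 13, 16 and 15 against 31, 23 and 27 (-0.77, SE 0.16, adjusted p = 0.010, limma), but the value turned to 0.16 with TPM and missed the threshold with quantile normalization (adjusted p = 0.057, limma). Pole3, a histone-fold subunit of polymerase epsilon, had 14, 22, 16, 24 and 15 against 28, 33 and 25 (-0.65, SE 0.21, adjusted p = 0.045, limma), but it turned to 0.29 with TPM, missed the threshold with quantile normalization (adjusted p = 0.25, limma) and lost its call in 6 of the 8 fits that left out 1 sample.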

How the data were processed

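RNA of SCJ tissue, 5 cancers and 3 controls, was sequenced after poly(A) selection per the labels. Per the submitters' processing notes, the tools were cutadapt 1.8, TopHat2 2.0.13 and Cuffnorm 2.2.1 with mm10. The deposited values, which the authors describe as FPKM, are a score here because 100% are whole numbers, rounded by the authors. Read counts and depth are not part of them, so no counting intervals are given. The 14357 genes that reached 1 in 3 or more samples were fitted in R 4.3.3 by limma 3.58.1 with group as the only term (functions lmFit and eBayes, the latter with trend), on log2 of FPKM + 1, with a threshold of 0.05 on the Benjamini-Hochberg adjusted p. The fit was tested on simulated data. Adding 1 to FPKM understates the change of low genes.

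The members, their 9 roles, the lists of other replication and nucleotide genes and of cell type markers, and the tests were chosen with earlier results of these data known. Full values are given for the 2 members with the highest and the 1 with the lowest fold change of each role, for both genes of 5 ratios (two-sided exact permutation tests over 56 splits) and, of each group of other pathway genes, for the called gene with the largest change. Mcm6, Mcm7 and Pcna were added after their values were seen, as were the neighbours of promoters and the 4 promoters printed. The alternatives were TPM, array weights, quantile normalization, a pseudocount of 0.1, no filter or a mean of at least 5, a replicate block, eBayes without the trend, and fits without each sample in turn. For 9 members the row shares a locus with another gene. Adgre1 was listed under an older symbol, Emr1. Promoter letters were searched in the RefSeq table for GRCm38.p6, whose chromosome coordinates are those of mm10. The values of 1 lymphocyte marker, and the sum of that list, are not reported here.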

Additional observations from a re-analysis of the deposited data

Results flagged for a closer look

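In 43 results checked among the 5 cancers (the named members, the other pathway genes named and the 5 ratios), 2 had a sample far from the others, where chance flags about 1 in 20. Pole2 had 1 FPKM in cancer 5 and 5 to 6 in the other cancers, so that the gap to the nearest was 0.8 of the whole range, above the limit of 0.71. The log2 ratio of Rrm2 to Rrm1 was -1.66 in cancer 5 and between -0.44 and -0.16 in the other cancers, a gap of 0.817 of the range. Rrm2 had 5 FPKM in that cancer and Rrm1 18 FPKM. Cancer 5 was also the cancer with the highest sum of hepatocyte markers (445 FPKM), and the part of this in both values was not tested.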

How the results depend on the processing

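Depth is unknown and values are rounded, so members under a mean of 5 FPKM (12 of 52) rest on few steps. With a mean of at least 5 as the filter, 26 of 40 members were higher (13.6% of all genes). Of the 30 members called, 19 were called in every fit without 1 sample. The replicate block rests on cancers 1 to 3 and the controls. The number of members higher was 46 with TPM, 36 with array weights and 13 with the replicate block. In the fits without 1 sample it ranged from 20 (without control 3) to 33 (without cancer 5). In all of these fits 0 members were lower. The cause of the changes listed here was not tested.

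Calls over all genes moved with several settings. Genes higher numbered 1244 with a mean of at least 5, 7176 with TPM, 3909 with array weights and 1362 to 2459 without 1 sample, and genes lower numbered 528 with TPM, 4239 with array weights and 1186 to 2773 without 1 sample. Other pathway genes higher numbered 38 with TPM, 21 with array weights and 4 to 14 without 1 sample. Those lower numbered 1 with no filter, 0 with TPM or quantile normalization, 6 with array weights and 1 to 3 without 1 sample. Members in which every cancer lay above every control numbered 46 with TPM, and those below 1 with quantile normalization.

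Over all genes tested, samples that share a number did not deviate together (correlations -0.02, -0.19 and -0.10 for numbers 1, 2 and 3). The numbers were not taken as pairs in the main fit, but such correlations cannot exclude a pairing that affects some genes. In the replicate block only numbers 1, 2 and 3 occur in both groups, so the other cancers do not enter its group difference. Its counts thus differ from the main fit in the samples used as well as in the pairing. With the replicate block 13 members were higher (6.84% of all genes), 12 of them also called without it, and 982 genes were higher and 552 lower, with 3 and 0 other pathway genes. With 3 pairs the exact test of a ratio cannot give a p under 0.25. Over these pairs the mean difference of the log2 ratio, cancer minus control, was 1.08 for Cdt1 to Gmnn and -0.03 for Rrm2 to Rrm1. It was -0.56 for Orc1 to Orc2, -0.46 for Pole2 to Pole and -0.97 for Dbf4 to Cdc7. Cdt1 to Gmnn, Pole2 to Pole and Dbf4 to Cdc7 differed in the same direction in all 3 pairs (exact sign-flip test p = 0.25, adjusted p = 0.417).

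Fold changes near 0 changed sign in some settings, among members that were not called with FPKM. With TPM Cdc6, Gins1, Prim2 and Tk1 were 0.63, 0.68, 0.60 and 0.74, and Pola2 was 0.70 and passed as higher (adjusted p = 0.023, limma). With the block, which rests on cancers 1 to 3 and the controls, Cdc6 and Tk1 were 0.14 and 0.035. With quantile normalization Tk1 was 0.028 and Pole2 -0.046, and with array weights Gmnn was -0.0056 and Rfc1 -0.0019. Without 1 sample Cdc6 ranged from -0.18 to 0.069, Gmnn from -0.050 to 0.22, Gins1 from -0.63 to 0.30, Prim2 from -0.57 to 0.076, Pole2 from -0.052 to 0.45, Rfc1 from -0.062 to 0.33 and Tk1 from -0.44 to 0.0059. Of the 2 other pathway genes lower, Mcmbp was 0.16 and Pole3 0.29 with TPM. Of 597 values of single named genes, 512 kept direction and side of the threshold, 48 lost and 13 gained a call, and 24 changed sign. This total hides differences between settings. All 38 were kept without the trend and with a pseudocount of 0.1. With TPM 24 were kept, 8 gained a call and 6 changed sign. With the replicate block 17 were kept, 18 lost and 1 gained a call, and 2 changed sign.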
